A study of Homo sapiens with 12 samples.

Results

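Knockdown of SIK3, the gene of salt-inducible kinase 3, was followed in PANC-1 cells that had received no TNF by the words in the count file names. The comparison holds 4 of the 12 RNA sequencing libraries: 2 whose file names carry SIK3_CLM minus 2 whose names carry Scr1_CLM, where CLM was read as no TNF. PANC-1 is a human pancreatic ductal adenocarcinoma line, and all libraries came from 1 line, kept for 72 h after reverse transfection of siRNA, either control or against SIK3. Each group had 2 biological replicates, named B and C in the files, and the other 4 groups carry a time, 30min (Scr1_30min, SIK3_30min) or 4h (Scr1_4h, SIK3_4h). The time was read as that with TNF-α, an inflammatory cytokine, which the labels give at 100 ng/mL. In the text, control and SIK3 siRNA libraries are those named Scr1_CLM and SIK3_CLM, and levels are in CPM, counts divided by the TMM-scaled library size over tested genes. They are given in the order control B, control C, then SIK3 siRNA B, SIK3 siRNA C.

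The sample titles disagree with the file names. The Scr1_CLM libraries are titled control siRNA, unstimulated, which matches. The SIK3_CLM libraries are titled as the knockdown with TNF-α for 30 min, and their titles name the target AS1 where the characteristics name SIK3. The siRNA is therefore the same in both sources for all 4 libraries, and the TNF state differs for 2 of them. If the titles were right, the comparison would hold the siRNA and TNF for 30 min together, and the 2 could not be told apart. By title, Scr1_30min is the knockdown without TNF, Scr1_4h the control siRNA with TNF for 30 min, SIK3_30min the control siRNA with TNF for 4 h, and SIK3_4h the knockdown with TNF for 4 h. File name and title differ for 8 of the 12 libraries, and 4 of these differ in the siRNA.

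Salt-inducible kinases belong to the AMPK-related family and are switched on by the kinase LKB1. They phosphorylate the CRTC coactivators of CREB and the class IIa histone deacetylases, which 14-3-3 proteins then hold in the cytoplasm. Protein kinase A, activated by cAMP, blocks the salt-inducible kinases, so that dephosphorylated CRTCs enter the nucleus and promote transcription of CREB targets, SIK1 among them.

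SIK3 mRNA (ENSG00000160584.15, chromosome 11, 116843402 to 117098437, minus strand, GRCh38) was at 34.3 and 60.4 CPM in the control libraries and at 16.3 and 22.4 CPM with SIK3 siRNA. It was 2.38-fold lower (log2 fold change -1.25 ± 0.11 (SE), adjusted p = 2.07e-09), and the groups did not overlap. Both C libraries lay above the B library of their group. Over all 6 groups by file name, SIK3 averaged 47.3 ± 18.4, 55.6 ± 18.6 and 49.8 ± 21.8 CPM (SD, n = 2) in Scr1_CLM, Scr1_30min and Scr1_4h. It averaged 19.3 ± 4.3, 20.6 ± 4.79 and 20.5 ± 3.19 CPM in SIK3_CLM, SIK3_30min and SIK3_4h. SIK3 followed the siRNA word of the file name in all 6 groups, and went against the title in the groups titled knockdown without TNF and control siRNA with TNF for 4 h.

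**Figure D1:**
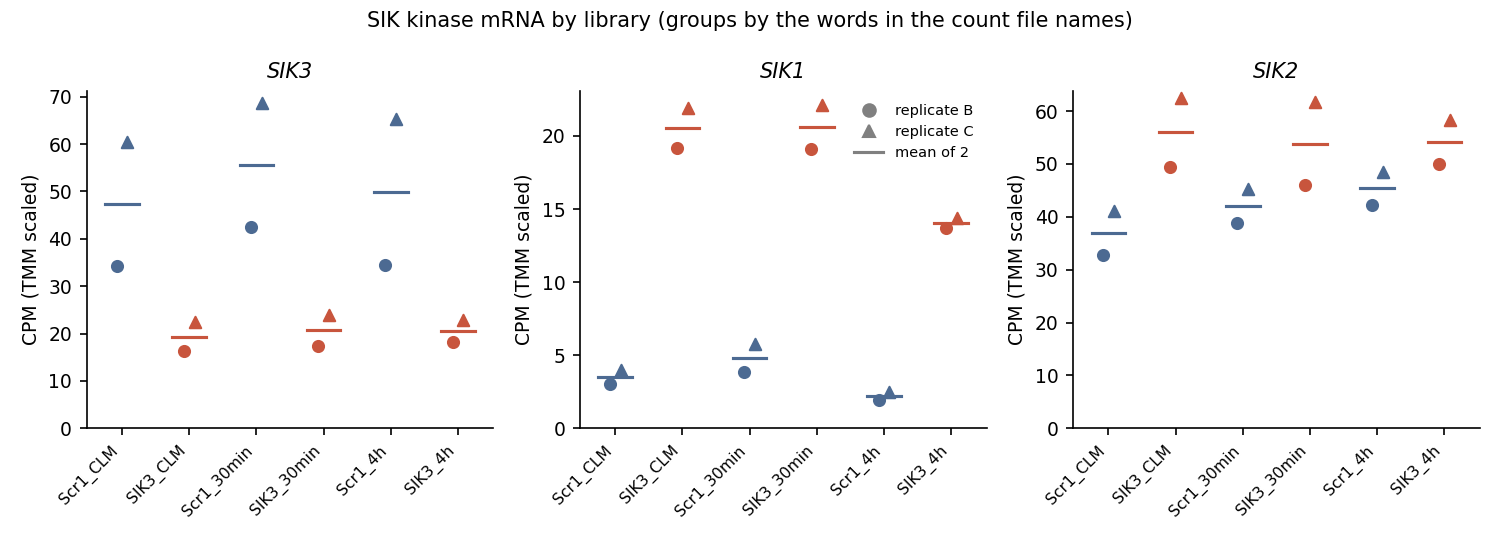
SIK3, SIK1 and SIK2 levels in CPM (y axis) in the 12 libraries, grouped by the words in the count file names (x axis; blue control siRNA, red SIK3 siRNA; circles replicate B, triangles replicate C, bars the mean of 2). SIK3 averaged 47.3 CPM in Scr1_CLM and 19.3 CPM in SIK3_CLM, and SIK1 3.49 and 20.5 CPM.

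Genes that TNF induces early through NF-κB bear on the TNF label. NFKBIZ, an inhibitor of NF-κB that is itself a target, averaged 46.9 ± 3.63 CPM in Scr1_CLM and 38.6 ± 2.22 CPM in SIK3_CLM, against 301 ± 12.4 CPM in Scr1_30min and 130.5 ± 15.9 CPM in SIK3_30min. NFKBIA, which encodes IκBα, averaged 216 ± 24.9 and 156 ± 13.6 CPM in the CLM groups, and 638 ± 23.1 and 301 ± 18.7 CPM in the 30min groups. TNFAIP3, the A20 brake on NF-κB, averaged 38.2 ± 3.08 and 21.1 ± 2.18 CPM, and 155 ± 8.33 and 55.1 ± 13.1 CPM, in the same order. These 3 genes were lower in both SIK3_CLM libraries than in every library named 30min or 4h. CXCL2, a neutrophil chemokine, was at 7.4 and 9.19 CPM and 10.6 and 13.7 CPM in the 2 CLM groups, and JUN, an AP-1 subunit, at 196 and 178 CPM and 258 and 259 CPM. Both were higher in SIK3_CLM than in Scr1_CLM and below every other library. The part of the TNF label in the results that follow was not tested beyond these levels.

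**Figure D2:**
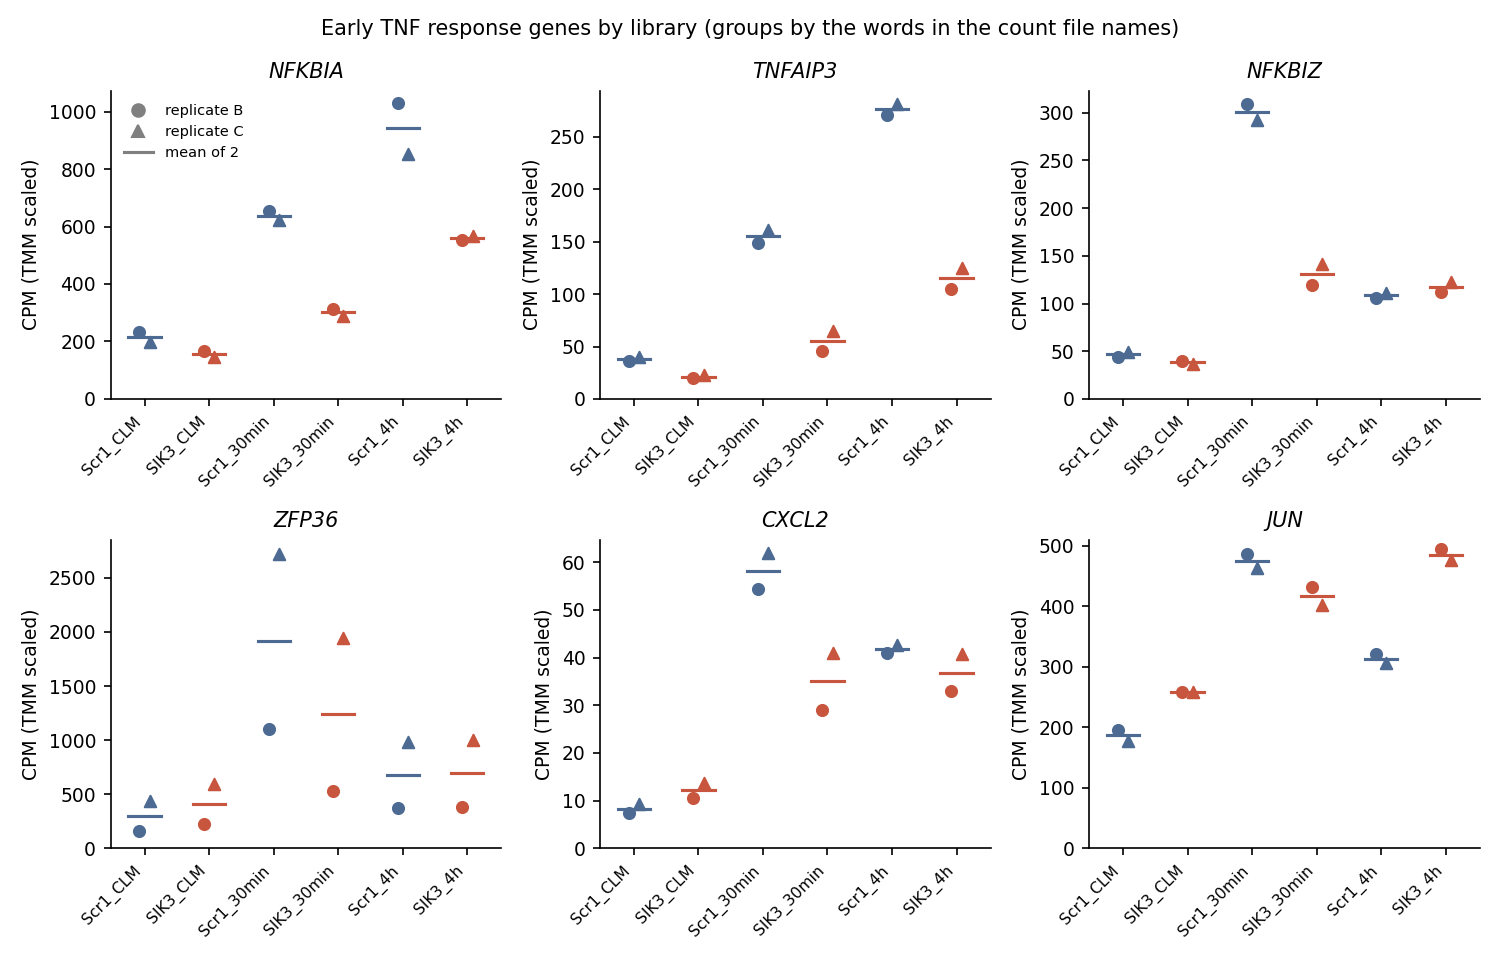
Levels in CPM (y axis) of 6 early TNF response genes in the 12 libraries, grouped by file name (x axis; blue control siRNA, red SIK3 siRNA; circles replicate B, triangles replicate C, bars the mean of 2). NFKBIZ averaged 38.6 CPM in SIK3_CLM and 130.5 CPM in SIK3_30min, and the CLM groups are the lowest for NFKBIA, TNFAIP3 and NFKBIZ.

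Gene counts per library were 19025746 and 14323580 for the control and 22699756 and 14384957 for SIK3 siRNA, so that a count of 0 allows up to 0.132 to 0.209 CPM (3 counts, counting error only). Multimapping reads were 5.38 and 38.2% of the control libraries and 5.53 and 45.3% of the SIK3 siRNA libraries, so that both C libraries were high. The 13 mitochondrially encoded mRNAs summed to 1534 and 8669.5 CPM, and to 1951 and 8251 CPM, high in both C libraries as well. The replicate letter was kept as a block in the fit, and a first principal component with 53.6% of the variance separated all 6 libraries named SIK3 from all 6 named Scr1. All 8 ductal epithelial markers passed the low-count filter, led by KRT8 and KRT18. With SIK3 siRNA 1 of the 8 was called higher and 4 lower, against 29.2 and 29.1% of all genes tested. Of other cell types, the 9 immune markers summed to 2.84 to 3.96 CPM, nearly all from ITGAM, and the 6 endothelial markers to 0.376 to 1.16 CPM. The 8 fibroblast markers summed to 20.9 and 22.7 CPM in the control libraries and 26.3 and 36 CPM with SIK3 siRNA. Of the 5 that passed the filter, COL3A1 (11.4 and 8.55 CPM, then 16.1 and 16.5 CPM) and COL1A1 (5.18 and 8.77 CPM, then 6.69 and 15.4 CPM), fibrillar collagens, were higher and LUM, lumican, lower. COL1A1 and LUM were not called without the block or without SIK3_CLM C, LUM also not without either B library. FAP, DCN and COL1A2, further fibroblast markers, had at most 2 counts in each library, and the part of such cells in the results was not tested. PTPRC was at or below 1 count in each library, and PECAM1 at or below 2.

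Much of the transcriptome differed between the SIK3 siRNA and control libraries. Of 16695 genes tested, 9746 (58.4%) passed an adjusted p of 0.05 (edgeR's quasi-likelihood test, Benjamini-Hochberg). Of all genes tested, 4882 (29.2%) were higher and 4864 (29.1%) lower with SIK3 siRNA, and the median log2 fold change of all genes was 0.01. By at least 2-fold, 1607 (9.63%) were higher and 1584 (9.49%) lower. Without the replicate block, 6449 genes passed. These shares are the background against which each gene list is read. Among protein-coding genes, 4313 were higher and 4411 lower of 12946 tested, and among antisense RNA genes, 184 were higher and 116 lower of 1109. In bulk RNA, fewer cells of a state and less RNA per cell cannot be told apart.

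The 12 protein-coding genes with the largest fitted rise included the 11 described here, SLC9A3, SNAI2, DIO2, CEND1, CACNG7, VGF, SYT5, ADAM11, CPLX1, RAB15 and SCG2. SLC9A3, a sodium-proton exchanger of epithelial brush borders, was at 0.423 and 0.141 CPM in the control libraries and 12.1 and 12 CPM with SIK3 siRNA (log2 fold change 5.29 ± 0.28 (SE), adjusted p = 5.54e-13). SNAI2, the transcription factor SLUG, was at 0.37 and 0.495 CPM and 10.9 and 14.9 CPM (29.2-fold higher). DIO2, the deiodinase that activates thyroid hormone, was at 0.317 and 0.283 CPM and 8.32 and 9.05 CPM (27.9-fold higher). These genes were nearly silent in the control libraries, on 2 to 8 counts each. VGF, a neurosecretory peptide precursor, was at 1.8 and 1.91 CPM and 41.3 and 52.8 CPM (25-fold higher, adjusted p = 3.29e-17). SCG2, secretogranin II of dense-core vesicles, was at 9.3 and 7.85 CPM and 105 and 116 CPM (12.7-fold higher). SYT5, a synaptotagmin, and CPLX1, a complexin, both of regulated exocytosis, had log2 fold changes of 4.38 and 3.83. ADAM11, CACNG7, a calcium channel subunit, CEND1, a neuronal cell cycle exit factor, and RAB15, a small GTPase of endosomes, rose by log2 fold changes of 4.01, 4.66, 4.72 and 3.81. These genes and CPLX1 were also nearly silent in the control libraries, so the sizes of their rises are uncertain. In Scr1_CLM, CACNG7 and CEND1 averaged 0.185 CPM, ADAM11 0.326 CPM, CPLX1 0.459 CPM and RAB15 0.521 CPM.

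The 12 with the largest fall were ASB4, ARHGAP19, HMMR, CEP55, TOP2A, EPB41L4B, DEPDC1, MELK, ARHGEF37, H2AC12, LRRCC1 and DEPTOR. HMMR, CEP55, TOP2A and ARHGAP19 act in cell division. TOP2A, the topoisomerase of mitotic chromosomes, was at 754 and 753 CPM in the control libraries and 55.5 and 51.3 CPM with SIK3 siRNA (log2 fold change -3.82 ± 0.07 (SE), adjusted p = 5.77e-20). CEP55, which recruits the abscission machinery to the midbody, was at 331 and 312 CPM and 21.9 and 22.9 CPM (14.4-fold lower). HMMR, a spindle protein, was at 185 and 165 CPM and 11.9 and 12 CPM (14.7-fold lower). The groups lay far apart in all 3, and replicates close together. ARHGAP19, a GTPase-activating protein of cytokinesis, was at 89.3 and 80.1 CPM and 5.35 and 4.29 CPM (17.4-fold lower). DEPDC1 and MELK, 2 genes expressed in dividing cells, had log2 fold changes of -3.61 and -3.56. DEPTOR, an inhibitor of mTOR, was at 16.4 and 13.7 CPM and 1.42 and 1.63 CPM. ASB4, a subunit of a ubiquitin ligase, was at 5.82 and 4.59 CPM and 0.209 and 0.34 CPM, and the membrane-cytoskeleton gene EPB41L4B at 149 and 155 CPM and 11.7 and 12.7 CPM. ARHGEF37, a guanine nucleotide exchange factor gene, H2AC12, a replication-dependent histone gene, and LRRCC1, a centrosomal gene, had log2 fold changes of -3.38, -3.36 and -3.36.

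**Figure D3:**
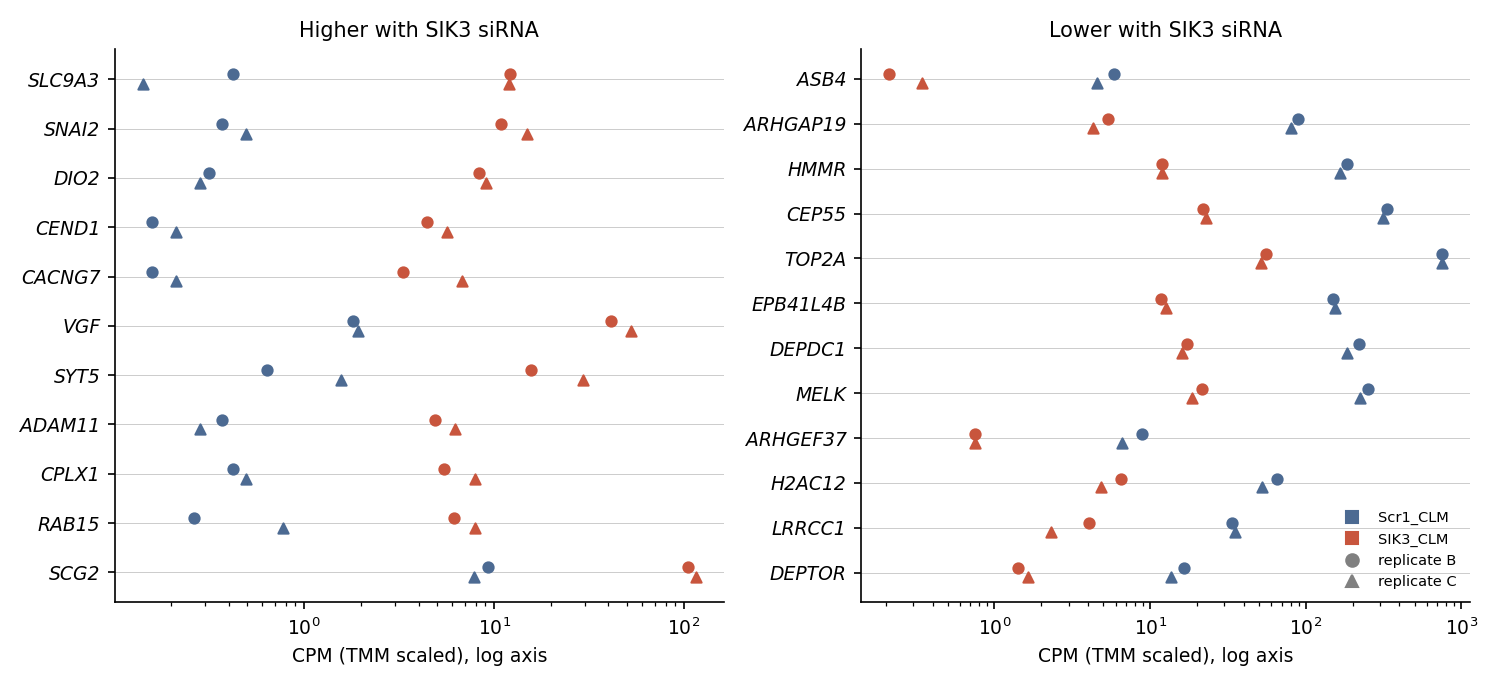
Levels in CPM (x axis, log scale) of 11 of the 12 protein-coding genes with the largest rise (left) and the 12 with the largest fall (right) in the 4 CLM libraries (blue Scr1_CLM, red SIK3_CLM; circles replicate B, triangles replicate C). The genes were chosen among those whose groups do not overlap. TOP2A lies at 754 and 753 CPM in the control libraries and at 55.5 and 51.3 CPM with SIK3 siRNA.

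Within the kinase family of SIK3, 10 of 21 tested members were higher and 7 lower. SIK1, the family member that CREB induces, was at 3.01 and 3.96 CPM in the control libraries and 19.2 and 21.9 CPM with SIK3 siRNA (log2 fold change 2.57 ± 0.14 (SE), adjusted p = 8.11e-13), and its reads may be shared with a near-identical copy, SIK1B. SIK2, the closest constitutive relative, was at 32.7 and 41 CPM and 49.5 and 62.4 CPM (log2 fold change 0.60 ± 0.07 (SE), adjusted p = 3.73e-07). Both were higher where SIK3 was lower, and neither group overlapped. BRSK1, a brain-specific AMPK-related kinase, was at 1.06 and 0.848 CPM and 7.19 and 6.46 CPM (7.07-fold higher), and BRSK2 rose by 0.75 on the log2 scale. PRKAA2, the AMPK α2 catalytic subunit, was at 91 and 100.5 CPM and 24.8 and 23.5 CPM (3.93-fold lower), and PRKAA1, the α1 subunit, had a log2 fold change of -0.36. STK11, which encodes LKB1, was at 96.2 and 90.7 CPM and 179.6 and 180.3 CPM (1.93-fold higher). Its partners STRADB and CAB39L, pseudokinase and scaffold of the LKB1 complex, had log2 fold changes of -1.23 and -1.14, and STRADA one of -1.11 on few counts. The AMPK β subunits split, with PRKAB2 at 0.75 and PRKAB1 at -0.36. MARK3, MARK4, NUAK1 and NUAK2, kinases downstream of LKB1, had log2 fold changes of 0.38, 0.73, 0.36 and 0.23. CAB39, MARK2, PRKAG1 and PRKAG2 did not pass (log2 fold changes of 0.07, -0.06, 0.01 and 0.04), and MARK1 did not reach the low-count filter. MARK4, NUAK2 and STRADA were not called without the replicate block, and NUAK2 also lost the call without SIK3_CLM C or Scr1_CLM B, and STRADA without SIK3_CLM C or Scr1_CLM C.

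Of the substrates and partners of these kinases, 6 of 24 were higher and 11 lower. YWHAH, the 14-3-3 η gene, was at 20.2 and 22.3 CPM in the control libraries and 85.7 and 104 CPM with SIK3 siRNA (log2 fold change 2.15 ± 0.07 (SE), adjusted p = 2.39e-16). SFN, 14-3-3 σ, rose by 0.69 on the log2 scale, while YWHAB, YWHAE, YWHAQ and YWHAZ were lower, with log2 fold changes of -0.27, -0.31, -0.30 and -0.17, and YWHAG did not pass. The 14-3-3 genes thus moved in both directions. CREM, a CREB family member that cAMP induces, was at 10.9 and 6.22 CPM and 23.7 and 21.2 CPM (2.57-fold higher), CREB1 at 93.5 and 87.6 CPM and 52.6 and 46.2 CPM (log2 fold change -0.87), and ATF1, the third of the family, had a log2 fold change of 0.51. Of the CRTC coactivators, CRTC1 was higher (0.79), and CRTC2 and CRTC3 did not pass (-0.12 and -0.15). Among class IIa deacetylases HDAC7 was at 70.6 and 81.4 CPM and 35.1 and 47 CPM (log2 fold change -0.90) and HDAC4 had -0.62, while HDAC5 and HDAC9 did not pass. Their partners MEF2A and MEF2C were lower (-0.67 and -0.99) and MEF2D did not pass. PRKACB and PRKACA, catalytic subunits of protein kinase A, were lower (-0.84 and -0.59), and PPP3CA, the calcineurin subunit that opposes these kinases, was higher (0.72), while PPP2CA did not pass. CRTC1, PRKACA, YWHAE and YWHAZ were not called without the block.

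CREB and CRTC targets had 14 of 22 tested members higher and 4 lower (13 and 2 without the block), with a median log2 fold change of 1.17, against 29.2% of all genes higher and 29.1% lower. The CRE, the palindrome TGACGTCA to which CREB binds, lay in the 150 bases before the start of 5 of 20 matched members (25%) and of 2.94% of the 11342 matched genes tested, and of 2.66% of those at least 2-fold higher. A gene counted when any of its promoters held the letters, and the 20 members have 48 promoters against 16379 for the 11342 genes. With only the first promoter of each gene, the CRE lay in 3 of 20 members and 2.49% of genes tested. The unrelated letters TTTGAA lay in 4 of 20 members and 3.91% of genes by the same count. The promoters of the 3 higher members that have the smallest p among those with a full CRE are shown, with the CRE in capitals (RefSeq, GRCh38.p14, 5′ to 3′ on the gene's strand): VGF at chr7:101165570-101165719 (minus strand), DUSP1 at chr5:172771196-172771345 (minus strand) and DIO2 at chr14:80212179-80212328 (minus strand).
VGF: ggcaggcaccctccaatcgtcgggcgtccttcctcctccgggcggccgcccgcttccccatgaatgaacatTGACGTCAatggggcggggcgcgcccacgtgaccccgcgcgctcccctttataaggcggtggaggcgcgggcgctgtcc
DUSP1: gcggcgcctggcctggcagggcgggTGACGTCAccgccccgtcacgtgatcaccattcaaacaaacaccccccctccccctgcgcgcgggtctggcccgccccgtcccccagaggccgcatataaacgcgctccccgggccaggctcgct
DIO2: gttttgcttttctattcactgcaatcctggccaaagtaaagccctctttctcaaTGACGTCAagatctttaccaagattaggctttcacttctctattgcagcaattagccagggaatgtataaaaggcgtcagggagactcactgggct

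A match describes the letters only. VGF and DIO2, whose CREs are printed, had log2 fold changes of 4.64 and 4.80, and DUSP1, a MAPK phosphatase, was at 140.3 and 136 CPM in the control libraries and 301 and 335 CPM with SIK3 siRNA (log2 fold change 1.20 ± 0.06 (SE), adjusted p = 7.29e-14). CITED2, a CBP/p300-binding regulator, was at 52.7 and 51.8 CPM and 285 and 335 CPM (5.89-fold higher). The NR4A nuclear receptors, early cAMP targets, rose together: NR4A1 was at 1.96 and 1.27 CPM and 5.77 and 8.5 CPM, NR4A3 at 0.529 and 1.56 CPM and 5.94 and 8.43 CPM, and NR4A2 had a log2 fold change of 1.40. All 3 were low, at most 8.5 CPM in every CLM library. AREG, the EGF-family ligand amphiregulin, was at 13 and 10.2 CPM and 31.1 and 26.4 CPM, IRS2, an insulin receptor substrate, rose by 1.14, BDNF, a neurotrophin, by 1.01 and RGS2, a G protein regulator, by 0.85 on the log2 scale. Lower members were ID1 (-1.95), FOS (-1.07), FOSB (-0.50) and ATF3 (-0.18), and PDE4B, PPARGC1A, PDE4D and PER1 did not pass. NR4A2, FOSB and ATF3 were not called without the block. NR4A2 also lost the call without either B library, and ATF3 without either C library.

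Growth factor and ERK genes moved both ways. EGF-family ligands and receptors had 6 of 12 tested members higher and 4 lower, with a median log2 fold change of 0.71. NRG1, neuregulin 1, was at 40.2 and 59.7 CPM in the control libraries and 137 and 187 CPM with SIK3 siRNA (log2 fold change 1.71 ± 0.06 (SE), adjusted p = 1.77e-15). EREG and HBEGF, ligands of the EGF receptor, rose by 0.90 and 0.72 on the log2 scale, and EGFR itself was at 398 and 647 CPM and 703 and 983 CPM, a difference not called without the block. TGFA, NRG2, NRG4 and ERBB4 were lower, with log2 fold changes from -1.31 to -0.91. ERBB4 was not called without the block, by DESeq2, or without SIK3_CLM B, SIK3_CLM C or Scr1_CLM B. ERK feedback genes had 7 of 20 tested members higher and 10 lower (4 and 6 without the block), with a median log2 fold change of -0.20. DUSP5, a nuclear ERK phosphatase, was at 51.3 and 59.7 CPM and 314 and 355 CPM (6.04-fold higher), whereas DUSP6, the cytoplasmic one, was at 61.1 and 54.9 CPM and 26 and 22 CPM (log2 fold change -1.26). EPHA2, a receptor kinase, was at 546 and 514 CPM and 186 and 207 CPM, and ETV5, an ETS factor, fell by 1.15 on the log2 scale. Immediate early genes had 20 of 38 tested members higher and 14 lower (11 and 9 without the block), with a median log2 fold change of 0.28. FOSL2, JUND and MYC rose by 1.26, 1.41 and 1.00 on the log2 scale, and FOS, EGR1, MAFF and IER2 had log2 fold changes of -1.07, -0.97, -1.32 and -0.80. AP-1 members therefore split, with FOS lower and JUND and FOSL2 higher in both replicates. EGR1 was not called without the block.

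Genes of the cell cycle were lower as a group. All 47 mitosis genes were lower, 45 of them by at least 2-fold, with a median log2 fold change of -2.34, from -3.88 to -0.18, against 29.1% of all genes lower and 9.49% by at least 2-fold. Without the block 45 mitosis genes were called. All 40 DNA replication genes were lower (35 by at least 2-fold, median -1.66). Genes of the G2 and M phases often carry CCAAT boxes and a cell cycle homology region (CHR), which recruit the NF-Y and DREAM complexes. The letters CCAAT and TTTGAA, sought on both strands, both lay in the 150 bases before the start of 19 of 40 matched mitosis genes (47.5%). They lay in 5.88% of the 1105 matched genes at least 2-fold lower, 1.42% of the 1053 at least 2-fold higher and 2.07% of all matched genes tested. With only the first promoter of each gene, both lay in 17 of 40 mitosis genes (42.5%), 4.98% of genes at least 2-fold lower and 1.42% of genes tested. No matched replication gene of 34 held TTTGAA there. Of the mitosis genes that hold both, the promoters of the 3 with the smallest p are shown, with CCAAT and TTTGAA or their reverse complements in capitals (RefSeq, GRCh38.p14): CEP55 at chr10:93496462-93496611 (plus strand), HMMR at chr5:163460482-163460631 (plus strand) and ECT2 at chr3:172750576-172750725 (plus strand).
CEP55: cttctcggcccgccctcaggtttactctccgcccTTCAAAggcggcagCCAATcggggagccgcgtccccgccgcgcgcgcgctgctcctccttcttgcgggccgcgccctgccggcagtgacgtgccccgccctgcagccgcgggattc
HMMR: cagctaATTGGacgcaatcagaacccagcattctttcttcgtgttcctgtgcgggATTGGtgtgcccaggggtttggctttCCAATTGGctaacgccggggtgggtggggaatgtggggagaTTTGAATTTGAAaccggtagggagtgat
ECT2: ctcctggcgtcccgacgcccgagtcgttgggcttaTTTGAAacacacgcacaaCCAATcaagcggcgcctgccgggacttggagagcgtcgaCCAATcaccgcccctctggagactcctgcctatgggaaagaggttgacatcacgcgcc

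CEP55 and HMMR, whose promoters are printed, were among the 12 largest falls, and ECT2, the exchange factor that positions the cleavage furrow, was at 442 and 403 CPM in the control libraries and 77.9 and 73.2 CPM with SIK3 siRNA (log2 fold change -2.48 ± 0.05 (SE), adjusted p = 3.79e-19). CENPF, a kinetochore protein, was at 921 and 1108 CPM and 118 and 117 CPM. CCNB1 and CDK1, cyclin B1 and its kinase, were at 445 and 357 CPM and 84.4 and 70.3 CPM, and at 120.2 and 93.1 CPM and 20.5 and 13.1 CPM. MKI67, the proliferation marker, was at 293 and 852 CPM and 88.1 and 190.0 CPM (3.88-fold lower), with both B libraries low, and was not called without the block. In replication, MCM2 and MCM7, subunits of the helicase, were at 102 and 85.5 CPM and 18.7 and 15.4 CPM, and at 250.1 and 224 CPM and 74.6 and 63.4 CPM. RRM2 and RRM1, subunits of ribonucleotide reductase, had log2 fold changes of -2.34 and -1.67, and WDHD1, a replisome scaffold, one of -2.43. The smallest falls were those of BUB3 (-0.18), a checkpoint protein, and POLA1 (-0.38), of DNA polymerase α. BUB3 was not called without the block, with library totals for scaling, or without SIK3_CLM B, SIK3_CLM C or Scr1_CLM B.

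Regulators of the cycle were lower as well. Of the E2F, RB and FOXM1 regulators 16 of 19 were lower and 0 higher (median -1.32). E2F1, an activator of the G1/S genes, was at 13.6 and 10.5 CPM in the control libraries and 2.3 and 1.97 CPM with SIK3 siRNA (log2 fold change -2.49), E2F7, a repressor, at 52.4 and 71.4 CPM and 8.61 and 11.8 CPM, and MYBL2, the B-MYB factor of G2/M genes, at 74.6 and 115 CPM and 22.8 and 34.6 CPM. LIN9, of the DREAM complex, and the pocket protein RBL1 had log2 fold changes of -2.27 and -1.44, and E2F4, E2F6 and LIN37 did not pass. Of the G1 cyclins, kinases and inhibitors 12 of 14 were lower. CDK6, a kinase of G1, was at 751 and 899 CPM and 157 and 168 CPM (5.07-fold lower), and CCNE2 and CDK2, a cyclin and kinase of S phase entry, had log2 fold changes of -2.20 and -0.87. Of the inhibitors, CDKN1A (p21) was at 73.5 and 70.5 CPM and 29.8 and 34.9 CPM, CDKN2C (p18) at 45.6 and 36.4 CPM and 9.99 and 8.71 CPM, and CDKN1B (p27) had a log2 fold change of -0.75, while CDKN1C (p57) was higher (1.45). CDKN2D did not pass and CDKN2B was filtered out. All 20 homologous recombination and Fanconi genes were lower (median -1.81), and 18 without the block, where PALB2 and RAD51C were not called. RAD51C also lost the call without SIK3_CLM B. FANCD2, at the centre of crosslink repair, was at 79.6 and 75.8 CPM and 10.8 and 8.71 CPM, and BRCA1 at 102 and 104 CPM and 24.8 and 25.7 CPM. FANCI, BLM and UBE2T, of the same repair, had log2 fold changes of -1.96, -2.35 and -2.35.

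Histone genes and FOXO targets were also counted. Of 51 replication-dependent histone genes tested, a list chosen after values were seen, 46 were lower and 0 higher (median -2.00). They are near-identical copies, so single members are uncertain, and their mRNAs mostly lack poly(A) tails. H1-5, a linker histone gene, was at 153 and 126 CPM in the control libraries and 31.3 and 28.5 CPM with SIK3 siRNA, and H2AC14, a core one, at 124 and 73.3 CPM and 21.5 and 13.8 CPM. FOXO factors and targets had 7 of 14 tested members higher and 6 lower, with a median log2 fold change of 0.16. SESN3, a sestrin, was at 6.24 and 8.98 CPM and 0.627 and 0.952 CPM, TXNIP, an arrestin-like regulator of glucose uptake, at 53 and 42.8 CPM and 21.2 and 21.2 CPM, and IRS2 was higher.

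Interferon-stimulated genes had 24 of 38 tested members higher and 8 lower, with a median log2 fold change of 0.62, against 29.2 and 29.1% of all genes, and 12 were at least 2-fold higher. The core of the interferon-stimulated response element was sought on both strands as a pair of GAAA runs with any 2 bases between them. They lay in the 150 bases before the start of 17 of 27 matched members (63%), of 1.95% of matched genes tested and of 1.52% of those at least 2-fold higher. With only the first promoter of each gene, they lay in 15 of 27 members (55.6%) and 1.35% of genes tested. Of the higher members that hold them, the promoters of the 3 with the smallest p are shown with these letters in capitals (RefSeq, GRCh38.p14): IFI6 at chr1:27672193-27672342 (minus strand), OAS3 at chr12:112938324-112938473 (plus strand) and ISG15 at chr1:1013347-1013496 (plus strand).
IFI6: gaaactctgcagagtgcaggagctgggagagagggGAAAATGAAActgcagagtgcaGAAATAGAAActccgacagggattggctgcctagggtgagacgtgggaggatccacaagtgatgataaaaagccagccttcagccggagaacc
OAS3: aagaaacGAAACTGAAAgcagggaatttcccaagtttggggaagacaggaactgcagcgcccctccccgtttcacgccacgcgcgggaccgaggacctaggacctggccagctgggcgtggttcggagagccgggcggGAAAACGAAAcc
ISG15: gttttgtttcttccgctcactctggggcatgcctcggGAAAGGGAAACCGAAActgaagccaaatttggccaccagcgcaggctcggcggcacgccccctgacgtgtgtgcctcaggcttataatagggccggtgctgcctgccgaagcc

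IFI6, a membrane protein of the endoplasmic reticulum, was at 15 and 12.3 CPM in the control libraries and 141 and 147 CPM with SIK3 siRNA (log2 fold change 3.40 ± 0.09 (SE), adjusted p = 1.44e-17). MX1, an antiviral GTPase, was at 13.1 and 10.5 CPM and 95.1 and 99.9 CPM (8.22-fold higher). ISG15, a ubiquitin-like modifier, was at 15.2 and 10.5 CPM and 51.4 and 42.2 CPM, and OAS3, an oligoadenylate synthetase, at 31.5 and 47.7 CPM and 72.9 and 109 CPM. In each of these 4 genes both SIK3 siRNA libraries were above both control libraries. Their choice by small p in this same comparison makes such a separation likely. OAS1, BST2 and IFI35 rose by 1.86, 1.61 and 1.27 on the log2 scale. Others fell: IRF1, a transcription factor that interferon-γ and TNF induce, was at 114 and 123 CPM and 56.6 and 64.3 CPM (log2 fold change -0.97), and OASL at 28.4 and 19.5 CPM and 7.02 and 6.05 CPM. IFITM3, IFIT2, IFIT5, IFI44, TRIM22 and USP18 did not pass. Antigen presentation genes had 8 of 21 tested members higher and 7 lower (4 and 5 without the block), with a median log2 fold change of 0.09. HLA-E and HLA-B, class I genes with near-identical relatives, rose by 0.68 and 0.63 on the log2 scale, and ERAP1, ERAP2 and PSMB9, which trim and generate peptides, had log2 fold changes of -0.61, -0.68 and -1.03. B2M, the light chain, did not pass (0.09).

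NF-κB subunits and feedback genes had 3 of 18 tested members higher and 11 lower (1 and 7 without the block), with a median log2 fold change of -0.26. BIRC3, the cIAP2 ubiquitin ligase, was at 1646 and 1430.0 CPM in the control libraries and 888 and 714 CPM with SIK3 siRNA (log2 fold change -0.94 ± 0.05 (SE), adjusted p = 7.63e-13), and TNFAIP3 at 36 and 40.4 CPM and 19.6 and 22.6 CPM. IKBKE, an IκB kinase relative, NFKBIE, an inhibitor, and TRAF1, an adaptor, had log2 fold changes of -1.86, -0.72 and -0.58. RELA and NFKBIB were higher (0.35 and 0.43), RELA with no call without the block, and NFKB1, REL, RELB and TNIP1 did not pass. Cytokines and chemokines had 9 of 25 tested members higher and 8 lower (5 and 6 without the block), with a median log2 fold change of 0.27. CXCL1, a neutrophil chemokine, was at 27.4 and 34.4 CPM and 56.2 and 63.9 CPM, and CXCL8 and CXCL2 rose by 0.78 and 0.55 on the log2 scale. IL11 was at 1.27 and 1.2 CPM and 7.57 and 6.87 CPM, IL18 rose by 0.69, and TNFSF9, the 4-1BB ligand, was at 0.899 and 0.636 CPM and 4.26 and 3.54 CPM. CCL5, which attracts T cells, was at 30.9 and 36 CPM and 14 and 19.4 CPM, and CX3CL1 had a log2 fold change of -0.71. CXCL1, CXCL2 and CXCL8 were thus higher and CCL5 and CX3CL1 lower, and CXCL2 and CX3CL1 were not called without the block. The CXC chemokines did not all rise. CXCL5 went the other way at low levels, with a mean of 1.13 ± 0.102 CPM in Scr1_CLM and 0.11 ± 0.0371 CPM in SIK3_CLM. Adhesion and urokinase genes had 4 of 15 tested members higher and 4 lower (4 and 2 without the block), with a median log2 fold change of 0.02. ADAMTS1, a matrix protease, was at 10.2 and 8.34 CPM and 70.2 and 72.4 CPM and MMP14, a membrane one, at 10.8 and 9.12 CPM and 28.4 and 26.7 CPM, while SELE, E-selectin, had a log2 fold change of -2.50 from 1.9 and 2.26 CPM. PLAUR, the urokinase receptor, rose by 1.00 on the log2 scale.

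Genes that promote and genes that block cell death were lower more often than higher. Death receptors and pro-apoptotic genes had 5 of 26 tested members higher and 13 lower (1 and 8 without the block), with a median log2 fold change of -0.26. APAF1, the apoptosome scaffold, was at 56.7 and 59.4 CPM in the control libraries and 15.7 and 13.8 CPM with SIK3 siRNA (3.9-fold lower). TNFRSF1A, the main TNF receptor, and FAS, a death receptor, had log2 fold changes of -0.76 and -0.61, and CYCS, cytochrome c, was higher (0.48), without a call when the block was dropped. Anti-apoptotic genes had 4 of 12 tested members higher and 7 lower (2 and 6 without the block), with a median log2 fold change of -0.40. XIAP, an inhibitor of caspases, was at 331 and 301 CPM and 62.9 and 55.7 CPM (log2 fold change -2.41 ± 0.07 (SE), adjusted p = 1.44e-17). BIRC5, survivin, which is also a mitosis gene, was at 156 and 127 CPM and 26.3 and 22.9 CPM, and MCL1, a BCL2 relative, at 532 and 479.8 CPM and 257 and 202 CPM. SOD2, the mitochondrial superoxide dismutase, was higher (364 and 306 CPM and 686 and 571 CPM), and CFLAR, the c-FLIP inhibitor of caspase-8, lower (-0.57). Of the immune checkpoint ligands 7 of 10 tested were lower and 1 higher, with 4 lower and 1 higher without the block. NT5E, the CD73 ectoenzyme, was at 359 and 325 CPM and 196 and 180.3 CPM, VSIR, VISTA, at 20.2 and 18.3 CPM and 4.89 and 4.49 CPM, and CEACAM1 had a log2 fold change of -2.32 on few counts. PVR, a ligand of TIGIT, was higher (0.53), CD276 lower (-0.26, not called without the block), and CD274, PD-L1, did not pass (-0.09).

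Markers of epithelial and mesenchymal state moved both ways. Epithelial junction and keratin genes had 2 of 18 tested members higher and 9 lower (2 and 4 without the block), with a median log2 fold change of -0.12. CDH1, E-cadherin, was at 81.7 and 85 CPM in the control libraries and 31.2 and 35.4 CPM with SIK3 siRNA (log2 fold change -1.33 ± 0.07 (SE), adjusted p = 8.67e-13), and ESRP1, an epithelial splicing factor, had a log2 fold change of -1.98. DSP, desmoplakin, was higher (0.92), CLDN1 lower (-0.47, not called without the block), and EPCAM did not pass (-0.11). Mesenchymal transition genes had 6 of 17 tested members higher and 6 lower (3 and 3 without the block), with a median log2 fold change of 0.12. TGFB2 was at 40.1 and 50.2 CPM and 244 and 278 CPM and SNAI2 was higher, while VIM, vimentin, was at 3382 and 3379.5 CPM and 1412 and 1398 CPM (2.41-fold lower) and SPARC, a matrix protein, had a log2 fold change of -0.76. TGFB1 was higher (1.54, not called without the block), and SNAI1, ZEB2 and FN1 did not pass. ID, BMP and SMAD feedback genes had 4 of 15 tested members higher and 7 lower, with a median log2 fold change of -0.47. ID1, an inhibitor of differentiation, was at 119.7 and 74.3 CPM and 30.6 and 19.5 CPM, and SKIL and SMAD6, brakes on SMAD signalling, had log2 fold changes of -1.19 and -0.89, while INHBA and BMP2, ligands, rose by 1.89 and 2.17. In the Hippo pathway (8 of 19 tested members higher and 4 lower (3 and 3 without the block), with a median log2 fold change of 0.16), YAP1, its effector, was at 545 and 565 CPM and 193 and 199.8 CPM (2.82-fold lower), TEAD1, the DNA-binding partner, was higher (0.76), and the targets CCN2 and ANKRD1 did not pass. AJUBA and CRIM1 were lower (-0.82 and -0.45), and AMOTL2 was higher (0.53).

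Stress and metabolic genes changed in part. The integrated stress response had 6 of 19 tested members higher and 7 lower (4 and 2 without the block), with a median log2 fold change of -0.02. ATF4, its central factor, was at 463 and 430.1 CPM in the control libraries and 798 and 794 CPM with SIK3 siRNA, CEBPB and ASNS rose by 0.77 and 0.45 on the log2 scale, and DDIT4, an mTOR inhibitor, had -1.21. ATF5 was higher (0.81), without a call when the block was dropped. The unfolded protein response had 8 of 14 tested members higher and 4 lower (5 and 2 without the block), with a median log2 fold change of 0.20. The chaperones HSP90B1 and HYOU1 rose by 0.74 and 0.81 and SEL1L, of protein retrotranslocation, by 0.45, while EDEM1, a lectin of the same quality control, was at 90.5 and 97 CPM and 16.4 and 17.6 CPM and DNAJC3 had a log2 fold change of -0.82. Cholesterol and fatty acid genes had 8 of 25 tested members higher and 11 lower (5 and 8 without the block), with a median log2 fold change of -0.13. INSIG1, which retains SREBP, was at 225 and 193 CPM and 72.4 and 61.8 CPM, and SC5D, a late enzyme of the pathway, had a log2 fold change of -1.91, while MSMO1, another enzyme, was higher (1.27). Glycolysis genes had 7 of 20 tested members higher and 9 lower (6 and 5 without the block), with a median log2 fold change of -0.08. LDHA, lactate dehydrogenase, was at 888 and 902 CPM and 433 and 474 CPM, ENO1 had a log2 fold change of -0.63, and HK2, hexokinase 2, was at 5.5 and 5.02 CPM and 19.8 and 19.9 CPM. GPI and ARRDC4 were higher (0.58 and 1.19). Lysosome and autophagy genes had 12 of 25 tested members higher and 5 lower (10 and 1 without the block), with a median log2 fold change of 0.12. GABARAPL1, an ATG8 protein, was at 40.3 and 36.8 CPM and 88 and 89 CPM, the cathepsins CTSA and CTSZ rose by 0.91 and 0.74, and ATP6V1A, a proton pump subunit, had -0.62. Of the 13 mitochondrially encoded mRNAs, MT-ND4L was higher (0.72) and MT-CO3 lower (-0.36). Their groups overlapped, neither was called without the block or by DESeq2, MT-CO3 was not called without SIK3_CLM C or Scr1_CLM C, and MT-ND4L was not called without SIK3_CLM B, SIK3_CLM C or Scr1_CLM B.

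**Figure D4:**
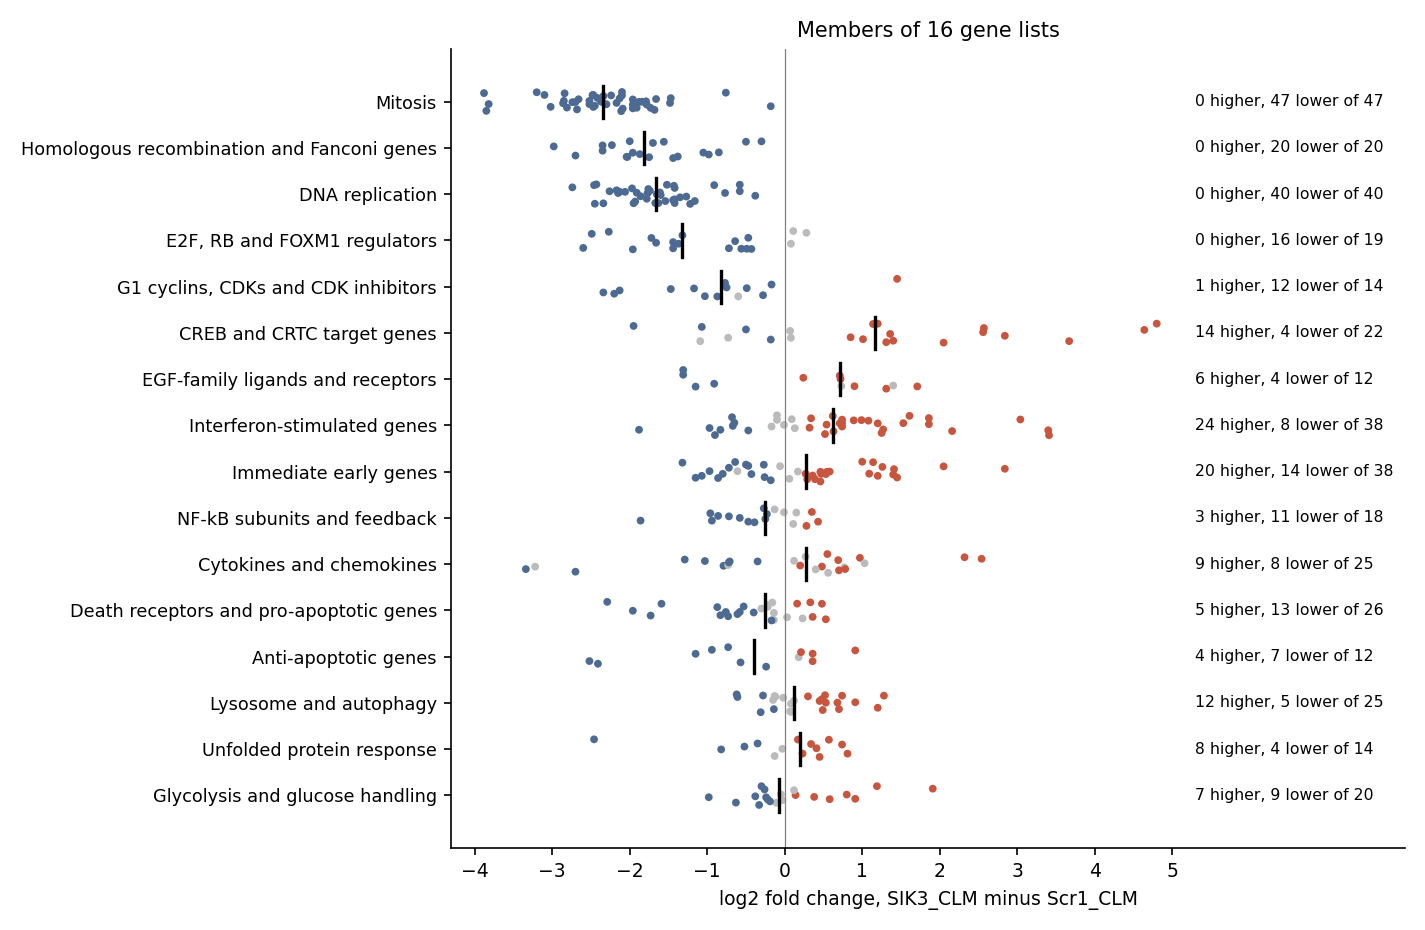
Log2 fold changes, SIK3_CLM minus Scr1_CLM (x axis), of the tested members of 16 gene lists (y axis; red called higher, blue called lower, grey not called; black bars the list medians; counts at the right). All 47 mitosis and 40 DNA replication genes lie below 0, CREB and CRTC targets have a median of 1.17, and interferon-stimulated genes have members on both sides of 0.

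Genes of neurosecretory vesicles and neurons stood out among the largest rises, and a list of them was drawn up after values were seen, so its counts describe only. Some genes of this kind are known to be silenced outside neurons by the repressor REST. Of 41 genes 29 were tested, 20 were higher, 16 of them by at least 2-fold, and 3 lower (median 1.72), while 12 did not pass the low-count filter. The filter raises this share and median. Members nearly silent in the control libraries, such as SNAP25, could enter only through libraries where they were higher, and those low throughout dropped out. CHGB, chromogranin B, was at 6.29 and 8.27 CPM in the control libraries and 33.2 and 42.5 CPM with SIK3 siRNA. STMN3, a stathmin, was at 19.7 and 21.6 CPM and 125 and 156 CPM, and SYP, synaptophysin, at 6.71 and 6.86 CPM and 21.6 and 23.3 CPM. SNAP25, a SNARE protein, was at 0.317 and 0.566 CPM and 5.18 and 4.76 CPM, on 6 and 8 counts in the controls, and GDAP1, a mitochondrial gene of peripheral nerve, rose by 2.00 on the log2 scale. The lower members included SCG5 (-2.78) and STX1A (-0.93). SCG5 was not called without the block, by DESeq2, or without SIK3_CLM B, Scr1_CLM B or Scr1_CLM C. REST itself was at 96.1 and 124 CPM and 49.4 and 52.8 CPM (log2 fold change -1.09 ± 0.07 (SE), adjusted p = 1.82e-11). Its corepressors RCOR3 and RCOR2 had log2 fold changes of -2.08 and 2.32, the latter on low counts, HDAC1 one of -0.49 and KDM1A, the demethylase, one of 0.79. Of the endocrine hormones, INS and GCG had 0 counts in all 4 libraries and SST at most 1. The part of REST in the vesicle genes was not tested.

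The siRNA effect was also measured in libraries that share none with these 4. All pairs came from the same fit, with a shared block and a shared estimate of spread. By title, the siRNA labels of the 30min pair are the reverse of those in the file names. Of the 1607 genes at least 2-fold higher in the CLM pair, 1379 (85.8%) were called higher in SIK3_30min minus Scr1_30min and 2 lower, where 28.5% of all genes tested were higher and 30% lower. Of the 1584 at least 2-fold lower, 1431 (90.3%) were called lower there and 0 higher. In SIK3_4h minus Scr1_4h, 1297 (80.7%) of the first and 1303 (82.3%) of the second were called the same way, where 29.7% of all genes were higher and 29.1% lower, and 17 and 11 the opposite way. VGF had log2 fold changes of 4.64, 4.17 and 3.83 in the CLM, 30min and 4h pairs, SIK1 of 2.57, 2.11 and 2.68, and TOP2A of -3.82, -3.62 and -3.16. SIK3 had -1.25, -1.42 and -1.25.

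Few genes passed the test of a different siRNA effect in the CLM and 30min pairs, the interaction: 44 of 16695 (0.264%). Of these, 31 had a higher and 13 a lower effect in CLM. The same quasi-likelihood test gave 1438 genes at an unadjusted p under 0.05. A gene that did not pass is not shown to have equal effects. Of 38 tested immediate early genes, 9 had the higher effect in CLM and 2 the lower, and of 25 cytokines and chemokines, 6 and 0. The count of 44 rests on the block. Without it 0 genes passed edgeR's quasi-likelihood test (317 at an unadjusted p under 0.05), while DESeq2 with the block called 56 and limma voom 48. Without replicate C of Scr1_CLM it was 69, and without the low-count filter 180. TNFSF9, the 4-1BB ligand, averaged 0.767 ± 0.186 and 3.9 ± 0.514 CPM in CLM (control, then SIK3 siRNA) and 5.97 ± 0.791 and 6.43 ± 2.71 CPM in 30min, a difference in log2 effect of 2.23 (adjusted p = 0.00113). CD69, an early activation antigen, CXCL2 and ZFP36, an mRNA decay factor, also differed in log2 effect, by 1.71, 1.28 and 1.22. CD69, CXCL2 and ZFP36 had opposite signs in the 2 pairs: their log2 fold changes were 1.39, 0.55 and 0.46 in CLM and -0.32, -0.74 and -0.75 in 30min, and CXCL2 and ZFP36 were not called in CLM without the block. IFNL1, an interferon λ, did not pass in the CLM pair and had a difference of 2.07. TXNIP averaged 47.9 ± 7.2 and 21.2 ± 0.0104 CPM in CLM and 34.8 ± 1.86 and 35 ± 0.681 CPM in 30min (-1.19). FOS, DUSP6, H2AC11 and HMOX1, haem oxygenase 1, differed by -0.89, -0.76, -0.72 and -0.71. HMOX1 was higher with SIK3 siRNA in both pairs, by 2.23 in CLM and 2.94 in 30min. The interactions of FOS and DUSP6 were not called without SIK3_CLM C or Scr1_CLM B, that of IFNL1 without SIK3_CLM C, and that of H2AC11 without SIK3_CLM B, SIK3_CLM C or Scr1_CLM B.

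Between the CLM and 4h pairs the interaction passed for 1996 genes (12%), 921 with a higher and 1075 with a lower effect in CLM. It was 261 without the block and 1254 without replicate C of SIK3_CLM. The SIK3_4h libraries had 16.5 and 17.1% of reads that overlapped no counted gene feature, against 8.35 to 10.5% in the CLM libraries. The part of these reads was not tested. ELOVL7, a fatty acid elongase, averaged 5.39 ± 0.0733 and 15.2 ± 0.0729 CPM in CLM and 97 ± 11 and 36.6 ± 4.28 CPM in 4h, so that it was higher with SIK3 siRNA in the first and lower in the second. ID2, an ID factor, averaged 7.15 ± 1.62 and 2.54 ± 0.316 CPM and 4.13 ± 0.592 and 16.7 ± 1.69 CPM, the opposite order. ID1 and FOS also had the lower effect in CLM (-2.08 and -1.94), as did BDNF (-2.01) and CSKMT, a mitochondrial methyltransferase (-2.61). KIRREL2, an adhesion protein, IFNL1, IFNL3 and SYT2, a synaptotagmin, had the higher effect (3.02, 2.95, 3.39 and 3.74). SYT2 was at most 0.476 CPM in the CLM libraries, and lost the call without replicate C of SIK3_CLM, while ID1 lost it without the block. MX1 averaged 11.8 ± 1.82 and 97.5 ± 3.38 CPM in CLM and 30.8 ± 3.47 and 71 ± 5.67 CPM in 4h. Of the mitosis genes 44 of 47 had the lower effect in CLM and 0 the higher, and their median was -2.34 in CLM, -2.25 in 30min and -1.66 in 4h. CREB and CRTC targets had medians of 1.17, 0.75 and 1.62, and interferon-stimulated genes of 0.62, 0.57 and 0.00.

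**Figure D5:**
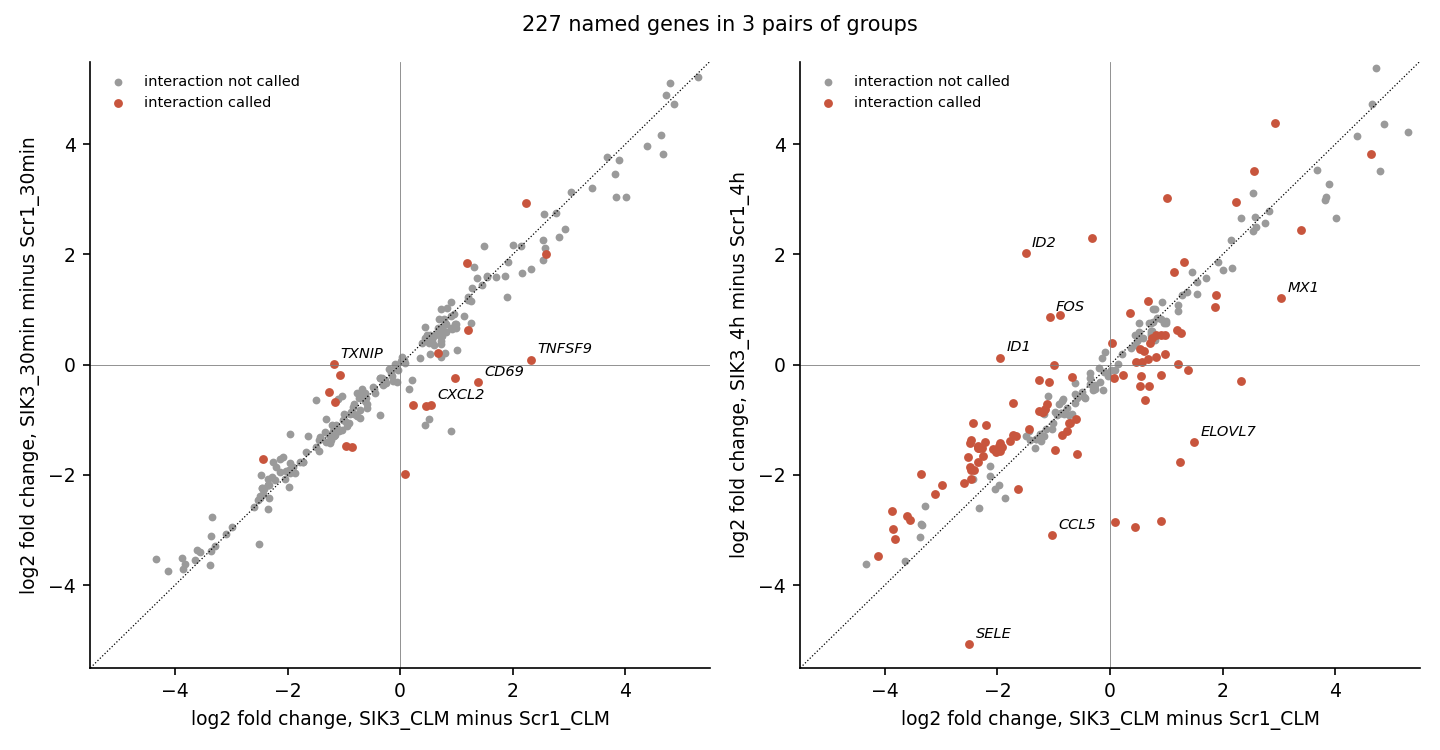
Log2 fold changes with SIK3 siRNA of 227 named genes in the CLM pair (x axis) against the 30min pair (left) and the 4h pair (right), by file name; red points passed the test of the interaction, and the dotted line marks equal change. TNFSF9 lies at 2.32 in CLM and 0.09 in 30min, and ELOVL7 at 1.49 in CLM and -1.41 in 4h.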

How the data were processed

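The authors deposited raw read counts per gene for 12 RNA sequencing libraries, whose reads were aligned with STAR 2.05b to GRCh38, with edgeR also listed, per the submitters' processing notes. The annotation release and the strand setting are not given in the sources used here. Libraries were made with the ScriptSeq Complete kit from DNase-treated RNA, per the labels' protocols. Counts in the second column were used, and 4 summary rows were left out of library sizes and tests. Groups were set by the words in the count file names, which conflict with the titles.

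Counts were scaled by TMM, filtered with filterByExpr (minimum count 10, 16695 of 60669 identifiers kept) and tested with edgeR 4.0.16 (R 4.3.3) by its quasi-likelihood test over all 12 libraries, with the replicate letter as a block and 5 residual degrees of freedom. Genes were called at a Benjamini-Hochberg adjusted p of 0.05 over all genes tested. Same-letter libraries deviated together in all 15 pairs of groups (r from 0.35 to 0.53). The file names do not say what a letter marks. With 2 libraries a group, p-values measure the spread among these 12 libraries that is left after the block, pooled over the groups. Replicates differed by more than counting noise. Depth ran from 13535825 to 22699756 gene counts per library.

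Named genes were SIK3, SIK1 and SIK2, the 12 largest called changes each way with at least 5 CPM and no overlap between groups, the 5 members of each list with the smallest p, all members of the kinase and substrate lists, and up to 5 genes each way per interaction. Further genes were named after their values were seen. Members and lists were chosen with earlier results of these data known. Promoters, of RefSeq genes matched by symbol, were searched in the 150 bases before the start; the count by first promoter was added after seeing the data. Alternatives changed the block, scaling, filter, test (DESeq2 1.42.0, limma 3.58.1), libraries in the fit and threshold. Some genes that the rule names are not reported here.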

Additional observations from a re-analysis of the deposited data

Results flagged for a closer look

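The effect of SIK3 siRNA differed between the CLM pair and another pair, by a test of the interaction, for 19 named genes at 30min and 105 at 4h, 108 genes in all. The values given here are those of the genes chosen by their interaction, as the log2 effect in CLM minus that in the other pair. Against the 30min pair the difference was 2.23 for TNFSF9, 2.07 for IFNL1, 1.71 for CD69, 1.28 for CXCL2 and 1.22 for ZFP36. It was -1.19 for TXNIP, -0.89 for FOS, -0.76 for DUSP6, -0.72 for H2AC11 and -0.71 for HMOX1. None of these 10 was called without the replicate block. Against the 4h pair it was 3.74 for SYT2, 3.39 for IFNL3, 3.02 for KIRREL2, 2.95 for IFNL1 and 2.90 for ELOVL7. It was -3.52 for ID2, -2.61 for CSKMT, -2.08 for ID1, -2.01 for BDNF and -1.94 for FOS.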

How the results depend on the processing

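The number of genes called was 9746 and moved to 6449 without the replicate block (3151 higher) and to 4840 with the 4 libraries alone and no block (2402 higher and 2438 lower). Leaving out 1 library gave 8332 to 8789 genes. The interaction with the 30min pair was 44 genes, 0 without the replicate block (317 at an unadjusted p under 0.05), 180 with no low-count filter and 30 to 69 when 1 library was left out, the highest without replicate 2 (C) of Scr1_CLM. The interaction with the 4h pair was 1996 genes, 261 without the replicate block, 1117 at an adjusted p under 0.01 and 1254 to 1769 when 1 library was left out, the lowest without replicate 2 (C) of SIK3_CLM. Of 227 genes named by rule, 209 were called and 190 of them stayed called under every alternative run on all groups. The remaining 19 lost the call under at least 1, and 4 when 1 library was left out. The 227 leave out genes named outside that rule. Of those named as changed, ATF3, BUB3, COL1A1, EGR1, ERBB4, FOSB, LUM, MKI67, NFKBIZ, NR4A2, PALB2, RAD51C, RELA and SCG5 were not called without the replicate block, and all of these but EGR1, FOSB, MKI67, PALB2 and RELA also lost the call when 1 library was left out. Among the 227 genes named by rule, no called direction reversed in any alternative that refitted the data. Scaling by library totals moved the median of all genes from 0.01 to 0.08 on the log2 scale, with 5481 genes higher and 4375 lower. The cause of these moves was not tested.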
